A study of Mus musculus with 14 samples.

Results

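Fc gamma receptors are the cell surface receptors by which blood cells bind IgG antibodies. The mouse has 3 activating receptors, Fcgr1, Fcgr3 and Fcgr4, a single inhibitory receptor, Fcgr2b, and a signalling chain, Fcer1g, that the activating receptors share. These 5 genes were taken by name from the 55487 genes of the count tables, and all 5 were present. Their read pairs were counted in 14 RNA sequencing libraries of 3 mouse cell populations treated with PBS or with the inflammatory cytokine IL-1β.

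LSK cells (lineage-negative, Sca-1-positive, c-Kit-positive, the fraction that holds the hematopoietic stem cells) and LK cells (lineage-negative, c-Kit-positive progenitors) were sorted from bone marrow of lethally irradiated C57BL/6 recipients. All of these recipients, the PBS group included, carried transplanted marrow with Mx1Cre and a heterozygous Jak2V617F knock-in allele, written Jak2 VF/+, which had been switched on with pI-pC. Mx1Cre is driven by an interferon-responsive promoter and is not restricted to blood cells. The mice then received PBS (3 libraries per population) or 0.5 μg IL-1β per dose (2 libraries per population), 3 doses a week for 16 weeks. MSC, which stands for mesenchymal stromal cells, were grown from wild-type C57BL/6 marrow for 21 days and then kept for 72 h with PBS (2 libraries) or 5 ng/ml IL-1β (2 libraries). The study states that it used young mice matched for age and sex. LSK and LK cells were sorted at the end of the 16 weeks of injections, so those recipients were older by then.

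When an activating receptor is clustered by IgG-coated particles, Src family kinases phosphorylate the ITAM motif of the Fcer1g chain, Syk is recruited, and phagocytosis, degranulation or cytokine release follows. Fcgr2b carries an ITIM motif in its own tail instead, which recruits the phosphatase SHIP-1 (Inpp5d) and dampens the same signal. The balance of activating and inhibitory receptors sets how a myeloid cell responds to IgG. In bone marrow, an antibody that binds the products of Fcgr3 and Fcgr2b together (CD16/32) is the usual stain that separates granulocyte-macrophage progenitors from other LK cells. That stain was not part of the gates that define LSK or LK cells in the study.

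The libraries held between 4393233 and 30871055 counted read pairs. Every IL-1β library of sorted cells (4393233 to 8641124) was shallower than every PBS library of sorted cells (12172400 to 18544346), so genes with few reads were measured less precisely after IL-1β. Ly6a, the gene of Sca-1, averaged 34.1 CPM (counts scaled by TMM to a million-read library) in LSK cells and 0.588 CPM in LK cells under PBS. Sca-1 is part of the LSK label, and the LK label does not mention it. The MSC cultures expressed the stromal genes Col1a1 (405 to 1309.6 CPM) and Cxcl12 (69.9 to 305 CPM), while Lepr, a marker of marrow stromal cells in the animal, was at 0 in both PBS libraries and below 0.53 CPM in both IL-1β libraries. The same cultures also carried macrophage transcripts. Of 15 macrophage markers 13 lay above 3 counts in every MSC library, among them Adgre1 (653 to 1804 CPM) and C1qa (1207 to 1979.9 CPM). Vsig4 and Cd163 were at or near 0. The 15 markers summed to 19681 to 23525 CPM under PBS and to 41404 to 42668 CPM with IL-1β, against at most 213 CPM in any sorted library. In such bulk libraries, more cells of a type and more RNA per cell cannot be told apart.

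Fcgr2b (ENSMUSG00000026656, chr1:170958617-170976547), Fcgr4 (ENSMUSG00000059089, chr1:171018920-171029761), Fcgr3 (ENSMUSG00000059498, chr1:171051174-171064935) and Fcer1g (ENSMUSG00000058715, chr1:171229572-171234365) lie close together on chromosome 1 of GRCm38. Fcgr1 (ENSMUSG00000015947, chr3:96282909-96293969) is alone on chromosome 3. Fcgr4 is on the plus strand and the other members are on the minus strand. The annotated genes that overlap Fcgr2b, Fcgr3 and Fcgr4 (Gm38204, Mir6546 and Gm26110) had 0, 1 and 2 read pairs over all libraries. Fcgr3 and Fcgr2b are close paralogs: 9.58% of the 50-base words in Fcgr3 transcripts also occurred in Fcgr2b transcripts, whereas Fcgr1, Fcgr4 and Fcer1g shared none with any other gene. Reads from those shared stretches may not have been assigned to either gene.

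The sequences before the RefSeq transcription starts of the members that moved most, and of Fcer1g, which moved least, follow, on GRCm38.p6. Each is the 250 bases upstream of the start, 5′ to 3′ on the strand of the gene. Capitals mark matches, on either strand, to 5 short motifs: TTCNNNGAA (the GAS site of STAT factors), GAGGAA (the PU.1 core), TTGCNNAA (a C/EBP site), AANNGAAA (an IRF site) and kappaB.
Fcgr1 lies at chr3:96293970-96294219 (minus strand), with 1 GAS match 109 to 101 bases upstream and 1 PU.1 core.
Fcgr1: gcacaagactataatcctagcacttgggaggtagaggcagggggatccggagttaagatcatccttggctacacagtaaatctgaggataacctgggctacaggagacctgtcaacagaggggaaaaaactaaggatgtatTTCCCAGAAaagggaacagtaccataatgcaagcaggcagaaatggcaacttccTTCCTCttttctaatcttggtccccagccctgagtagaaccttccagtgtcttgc
Fcgr3 lies at chr1:171059404-171059653 (minus strand), with 1 kappaB, 1 C/EBP and 1 PU.1 core match.
Fcgr3: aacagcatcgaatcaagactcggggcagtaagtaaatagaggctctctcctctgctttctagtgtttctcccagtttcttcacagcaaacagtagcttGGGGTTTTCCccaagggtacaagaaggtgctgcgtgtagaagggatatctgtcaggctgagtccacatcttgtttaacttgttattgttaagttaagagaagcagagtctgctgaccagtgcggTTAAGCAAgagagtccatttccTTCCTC
Fcgr2b lies at chr1:170976072-170976321 (minus strand), with 3 IRF matches, of which the last 2 overlap.
Fcgr2b: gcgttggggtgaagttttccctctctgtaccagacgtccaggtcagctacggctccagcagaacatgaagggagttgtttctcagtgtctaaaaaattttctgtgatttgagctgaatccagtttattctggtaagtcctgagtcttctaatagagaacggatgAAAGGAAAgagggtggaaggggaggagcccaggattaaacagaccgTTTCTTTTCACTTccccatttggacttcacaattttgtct
Fcer1g lies at chr1:171234350-171234599 (minus strand), with no match to any of the 5 motifs.
Fcer1g: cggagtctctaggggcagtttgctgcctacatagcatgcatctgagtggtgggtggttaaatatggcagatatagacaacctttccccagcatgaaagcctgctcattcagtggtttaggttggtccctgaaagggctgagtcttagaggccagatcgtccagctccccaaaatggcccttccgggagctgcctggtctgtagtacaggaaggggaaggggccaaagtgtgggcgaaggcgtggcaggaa
The window of Fcgr4 held 1 kappaB, 1 IRF and 1 PU.1 core match. RefSeq lists a further start of Fcgr3 nearby, with the same matches. Over 32807 promoter windows of the same length, the GAS motif occurred in 7.02%, the PU.1 core in 23.3%, the C/EBP motif in 9.57%, the IRF motif in 21.3% and kappaB in 7.25%. These matches describe letters and do not show binding. The windows of Fcgr3 and Fcgr2b lie inside the genes as counted, whose annotation begins further upstream. The members printed were picked by their fold changes, so matches and fold changes were not tested against each other.

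The members were expressed at very different levels in the 3 populations. Levels are compared between genes as CPM per kb of exon, and LSK and LK libraries share a scale that the separately normalised MSC libraries do not. In LSK cells under PBS, Fcer1g was highest (12.5 ± 2.26 CPM per kb, SD, n = 3), followed by Fcgr2b (2.61 ± 0.300) and Fcgr3 (1.88 ± 1.79), whose ranges overlapped. In LK cells under PBS, Fcer1g (16.0 ± 4.60, n = 3) and Fcgr3 (14.7 ± 4.64) overlapped, and Fcgr2b was lower (3.83 ± 1.43). Fcgr1 and Fcgr4 were at the bottom in both sorted populations, with at most 9 and 20 read pairs in any library. In MSC cultures under PBS the order per kb was Fcer1g (799 ± 16.9, n = 2), Fcgr3 (263 ± 2.22), Fcgr1 (53.1 ± 1.81), Fcgr4 (43.3 ± 7.38) and Fcgr2b (14.8 ± 5.09), with no overlap between neighbours. With IL-1β the order in MSC was Fcer1g (741 ± 26.7, n = 2), Fcgr3 (365 ± 43.7), Fcgr1 (129.7 ± 1.34), Fcgr2b (83.1 ± 4.97) and Fcgr4 (82.6 ± 5.57), and the last pair overlapped.

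**Figure D1:**
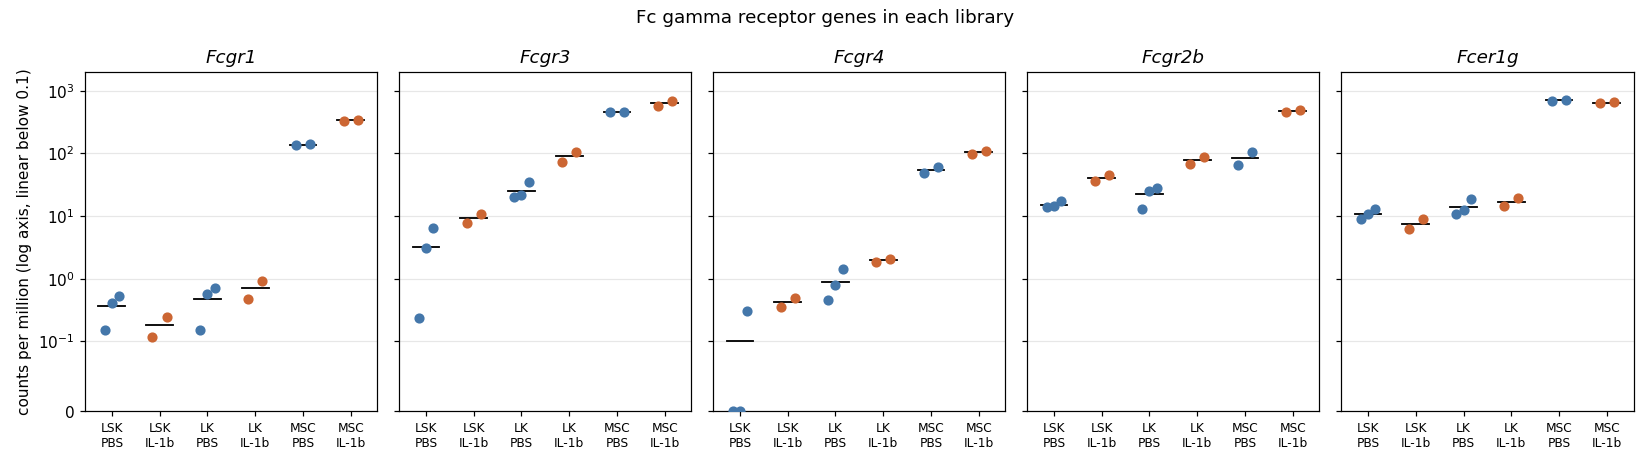
Level of each member in every library, in CPM on a log axis that is linear below 0.1; blue points are PBS libraries, orange points are IL-1β libraries, and the bar is the mean of the group. Fcgr1 and Fcgr4 stay below 2.1 CPM in all sorted libraries and lie between 47.8 and 338 CPM in MSC, while the orange points of Fcgr2b lie above the blue points in each population.

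Fcgr2b, the inhibitory receptor, was higher after IL-1β in every library of all 3 populations, and it passed the test in LK cells and in MSC. A gene passed when edgeR's quasi-likelihood test gave a Benjamini-Hochberg adjusted p under 0.05 over all genes and the log2 fold change exceeded 0.5 in size. In LSK cells Fcgr2b measured 13.9, 17.1 and 14.3 CPM in PBS replicates 1, 2 and 3, and 35.8 and 44.6 CPM in IL-1β replicates 1 and 2. The groups did not overlap. The log2 fold change was 1.44 ± 0.30 (standard error), and its adjusted p of 0.0680 missed the threshold. Without PBS replicate 2, the highest of its group, the value was 1.57 and passed (adjusted p = 0.0358).

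In LK cells Fcgr2b measured 12.8, 25.6 and 28.3 CPM under PBS and 87.5 and 68.6 CPM after IL-1β. Both IL-1β libraries were far above all PBS libraries, of which replicate 1 was the lowest. The log2 fold change was 1.81 ± 0.32 (3.51-fold, adjusted p = 0.0201). The call was lost without PBS replicate 2 (adjusted p = 0.0642), without IL-1β replicate 1 (0.181) and without IL-1β replicate 2 (0.0737).

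In MSC Fcgr2b measured 106 and 64.7 CPM in PBS replicates 2 and 3, and 502 and 461 CPM in IL-1β replicates 1 and 2. This was the largest rise of any member in any treatment comparison, with a log2 fold change of 2.50 ± 0.25 (5.67-fold, adjusted p = 0.00641). Leaving out either IL-1β library left the log2 fold change at 2.44 or 2.56 but raised the adjusted p to 0.0989 or 0.0627.

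Fcgr3, the low-affinity activating receptor of most myeloid and NK cells, rose in LK cells. It measured 20.3, 21.4 and 34.8 CPM in LK PBS replicates 1, 2 and 3, and 107 and 72.5 CPM in IL-1β replicates 1 and 2. The groups did not overlap, and the log2 fold change was 1.82 ± 0.27 (3.52-fold, adjusted p = 0.0105). Only the fit without IL-1β replicate 1, among the 5 that left out a library, lost the call (adjusted p = 0.110). The call was also lost when all 10 sorted libraries were fitted together (log2 fold change 1.81, adjusted p = 0.186).

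In LSK cells Fcgr3 was sparse. It had 41, 3 and 111 read pairs in PBS replicates 1, 2 and 3 (3.10, 0.232 and 6.46 CPM), and 66 and 44 in IL-1β replicates 1 and 2 (7.80 and 10.8 CPM). PBS replicate 2 stood far below the others, and the IL-1β libraries were the 2 highest. The log2 fold change of 1.53 ± 0.95 did not pass (adjusted p = 0.412). It moved to 1.01 without PBS replicate 2 and to 2.53 without PBS replicate 3.

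In MSC Fcgr3 was the most abundant receptor of the family. It measured 460 and 454 CPM under PBS and 688 and 581 CPM with IL-1β. The 2 IL-1β libraries were the higher ones, and the log2 fold change of 0.47 ± 0.13 did not pass (adjusted p = 0.0637). Without the filter on low counts it was 0.52 and passed (adjusted p = 0.00255).

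Fcgr1, the high-affinity IgG receptor of monocytes and macrophages, exceeded 9 read pairs only in MSC. There it stood at 141 and 134 CPM under PBS, against 333 and 338 CPM with IL-1β. Replicates were close to each other, and the log2 fold change was 1.29 ± 0.10 (2.44-fold, adjusted p = 0.00266). The adjusted p was 0.0883 without IL-1β replicate 1 and 0.0681 without IL-1β replicate 2. In sorted cells Fcgr1 had between 1 and 9 read pairs per library, and it had too few to be tested in LSK or LK cells.

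Fcgr4, an activating receptor of monocytes, macrophages and neutrophils, showed the same kind of distribution. In MSC it measured 60.9 and 47.8 CPM under PBS and 109 and 98.8 CPM with IL-1β, which is a log2 fold change of 0.94 ± 0.14 (adjusted p = 0.0170). The adjusted p was 0.255 without IL-1β replicate 1 and 0.154 without IL-1β replicate 2. In LK cells it had 10, 9 and 20 read pairs under PBS (0.798, 0.464 and 1.43 CPM) and 14 and 13 after IL-1β (1.86 and 2.09 CPM). The groups did not overlap, but the log2 fold change of 1.14 ± 0.64 did not pass (adjusted p = 0.315). Without PBS replicate 3, the highest of its group, it became 1.68 and passed (adjusted p = 0.0396). In LSK cells Fcgr4 had 4, 0 and 0 read pairs under PBS and 3 and 2 after IL-1β, too few to be tested.

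Fcer1g, the shared signalling chain, did not pass in any comparison. In LSK cells it measured 12.9, 8.98 and 10.9 CPM under PBS and 8.98 and 6.12 CPM after IL-1β, with a log2 fold change of -0.48 ± 0.44 (adjusted p = 0.587). In LK cells it measured 10.8, 12.6 and 18.5 CPM under PBS and 19.1 and 14.3 CPM after IL-1β, with overlapping groups and a log2 fold change of 0.26 ± 0.27 (adjusted p = 0.593). In MSC it measured 688 and 709 CPM under PBS and 664 and 631 CPM with IL-1β, so the log2 fold change was -0.11 ± 0.11 (adjusted p = 0.542). Both MSC libraries with IL-1β were thus slightly below both PBS libraries, unlike those of the 4 receptors.

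**Figure D2:**
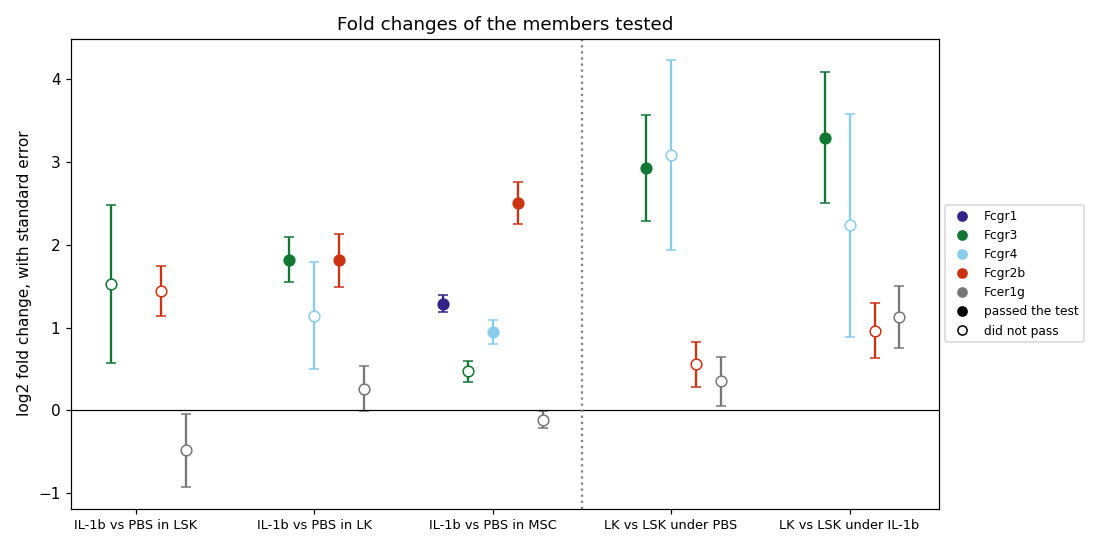
Log2 fold change of each member that had enough reads to be tested, with its standard error, for IL-1β against PBS in each population (left of the dotted line) and for LK against LSK cells within each treatment (right). Filled points passed the test; Fcgr2b lies at 1.44, 1.81 and 2.50 for IL-1β in LSK, LK and MSC, while Fcer1g lies at -0.48, 0.26 and -0.11, and the Fcgr4 points for LK against LSK rest on at most 4 read pairs per LSK library.

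By count, 0 of 3 tested members passed in LSK cells, where 0.320% of 13132 genes passed as higher. Fcgr2b was the 1 member with an unadjusted p under 0.05 there, beside 2431 of the 13132 genes. DESeq2 called 1 member, beside 384 genes as higher and 486 as lower. In LK cells 2 of 4 tested members passed as higher, beside 6.77% of 12835 genes. In MSC 3 of 5 passed as higher, beside 7.14% of 13239 genes, and no member passed as lower in any population. The values of the 2 treatments were fully separate for 2 of 3 members in LSK, 3 of 4 in LK and 5 of 5 in MSC, whereas this held for 39.6%, 45.7% and 61.2% of all genes tested. The median log2 fold change of the tested members was 1.44 in LSK, 1.48 in LK and 0.94 in MSC, beside -0.06, -0.03 and 0.00 over all genes tested.

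Markers of several cell types also differed between the treatments. In LK cells a list of 14 granulocyte-monocyte progenitor and neutrophil markers summed to 4449 to 9625 CPM under PBS and to 18347 to 21490 CPM after IL-1β, with 10 to 13 of the 14 above 3 counts. Mpo alone averaged 4687 CPM under PBS and 12154 CPM after IL-1β there. Of 12 tested in LK cells 8 passed as higher, beside 6.77% of all genes. In LSK cells the same list went from 2180 to 3173 CPM to 9784 to 11639 CPM (4 of 11 tested passed as higher, beside 0.320% of all genes). A list of 9 mast cell and basophil markers went from 355 to 595 CPM to 1494 to 2759 CPM in LK cells. Prss34 alone averaged 87.2 and 977 CPM there, and 4 of 8 tested passed as higher, beside 6.77% of all genes. The sum of the macrophage markers went the other way in sorted cells, from 104 to 160 CPM to 61.2 to 70.9 CPM in LK cells. In LSK cells it went from 194 to 213 CPM to 91.7 to 147 CPM. Of 11 tested in LK cells 2 passed as lower, beside 2.57% of all genes, and 3 had a log2 fold change above 0. In LSK cells 0 of 11 passed, and 3 were above 0. Csf1r stands in both the macrophage and the monocyte list. In MSC, 7 of 13 tested macrophage markers passed as higher, beside 7.14% of all genes, and none as lower, with a median log2 fold change of 0.67. Adgre1 rose by 1.32 ± 0.13 and Csf1r by 1.25 ± 0.27 on the log2 scale, next to 1.29 for Fcgr1 and 2.50 for Fcgr2b, whereas Cd68 was at -0.47 ± 0.19 and did not pass (adjusted p = 0.158). Erythroid markers went from 3376 to 4225 CPM to 2314 to 2481 CPM in LK cells (4 of 8 passed as lower). Of 7 monocyte markers, 4 passed as lower there, and 2.57% of all genes did. The 9 stem cell markers went from 1484 to 1934 CPM to 836 to 930.2 CPM in LSK cells (3 passed as lower, beside 0.312% of all genes). In MSC the 11 stromal markers went from 1445 to 2891 CPM to 3757 to 4285 CPM (1 of 9 tested passed as higher). The 7 monocyte markers went from 1019 to 1514 CPM to 2780 to 2855 CPM there (2 of 6 passed as higher). Both counts stand beside 7.14% of all genes. The part of these cell types in the receptor values was not tested.

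The make-up of the receptor transcripts differed between populations. Of the summed level of the 4 receptors in CPM per kb, Fcgr2b held 38.9% to 93.9% in LSK cells under PBS and 53.5% to 56.2% after IL-1β. The highest share belonged to PBS replicate 2, which had 3 read pairs of Fcgr3. In LK cells Fcgr3 held 71.8% to 79.0% under PBS and 75.3% to 78.4% after IL-1β, and Fcgr2b held 14.9% to 25.7% and 19.3% to 21.4%. The LK ranges of the 2 treatments overlapped. These shares depend on exon length, which is 5790 bases for Fcgr2b and 1736 for Fcgr3. By CPM without length, Fcgr2b and Fcgr3 averaged 22.2 and 25.5 in LK cells under PBS. After IL-1β they averaged 78.1 and 89.6 there. In MSC Fcgr2b held 3.08% and 4.76% under PBS and 12.4% and 12.8% with IL-1β, while Fcgr3 went from 68.6% and 72.1% to 53.7% and 56.8%.

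**Figure D3:**
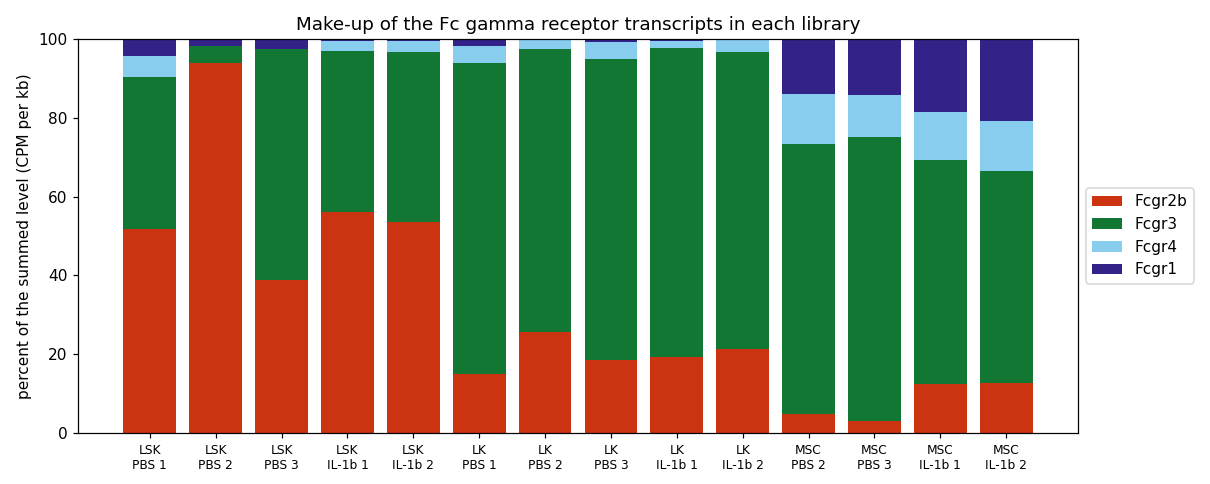
Share of each receptor in the summed level of the 4 Fc gamma receptors, in percent of CPM per kb, with 1 bar for each library. Fcgr3 fills most of every LK and MSC bar, Fcgr2b holds 38.9% or more of every LSK bar, and Fcgr1 and Fcgr4 are visible as wide bands only in MSC.

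Ratios between members within a library do not depend on its depth. Fcgr2b per Fcgr3 (in CPM per kb) was 0.188 to 0.358 in LK cells under PBS and 0.246 to 0.284 after IL-1β, so the treatments overlapped and no difference could be read. In MSC this ratio was 0.0427 and 0.0694 under PBS and 0.219 and 0.238 with IL-1β, 4.19-fold higher. In LSK cells it spread from 0.664 to 22.1 under PBS and was 1.24 and 1.38 after IL-1β, again with overlap. Fcgr2b per Fcer1g was higher in all IL-1β libraries of each population, by 3.88-fold in LSK, 3.04-fold in LK and 6.25-fold in MSC. The 3 activating receptors together per Fcer1g were also higher in all IL-1β libraries, by 6.98-fold in LSK, 2.86-fold in LK and 1.73-fold in MSC. The value in LSK was 3.10-fold without PBS replicate 2, which had 3 read pairs of Fcgr3, and 12.6-fold without PBS replicate 3. Exact two-sided permutation tests, which doubled the smaller tail, gave p = 0.2 for the separate differences in LSK and LK cells and 0.333 for those in MSC. For 3 against 2 and 2 against 2 libraries these are the smallest values of such a test, so none can reach 0.05. In LSK and LK cells Fcgr2b per Fcgr3 gave exact p of 1 and 0.8. Adjusted over the 12 ratio tests, the smallest p was 0.5. The ratios, and leaving out libraries from them, were chosen after the values of the members were seen.

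**Figure D4:**
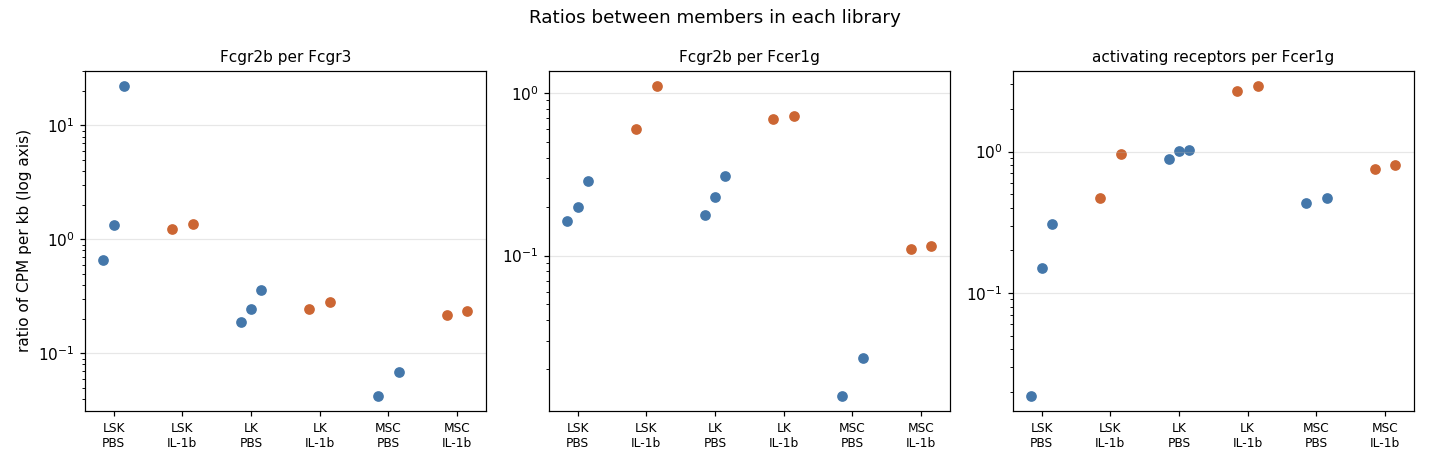
Ratios of levels in CPM per kb within each library, on log axes: Fcgr2b per Fcgr3, Fcgr2b per Fcer1g, and Fcgr1, Fcgr3 and Fcgr4 together per Fcer1g; blue points are PBS and orange points IL-1β libraries. In the middle and right panels every orange point lies above the blue points of its population, while in the left panel this holds only for MSC (0.219 and 0.238 against 0.0427 and 0.0694).

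LK cells were compared with LSK cells within each treatment, in a fit of all 10 sorted libraries with no block for the replicate number. Fcgr3 was the only member that passed in this fit. Under PBS its log2 fold change was 2.93 ± 0.64 (adjusted p = 0.00517), and it passed in all 6 fits that left out a PBS library. After IL-1β it was 3.29 ± 0.79 (adjusted p = 0.0421), but the call was lost when any of the 4 IL-1β libraries was left out (adjusted p 0.142 to 0.187). Fcgr2b differed by 0.56 ± 0.27 under PBS (adjusted p = 0.138) and by 0.96 ± 0.33 after IL-1β (adjusted p = 0.125), and Fcer1g by 0.35 ± 0.29 (adjusted p = 0.393) and 1.13 ± 0.38 (adjusted p = 0.116). None of these passed. Without LK PBS replicate 1, the lowest of its group, Fcgr2b under PBS became 0.83 and passed (adjusted p = 0.0227). Fcgr4 had 9 to 20 read pairs per LK library and 0 to 4 per LSK library, and its difference did not pass under PBS (adjusted p = 0.0580) or IL-1β (adjusted p = 0.364). Leaving out LSK replicate 1 left 0 read pairs of Fcgr4 in the LSK PBS group, and the pass in that fit (adjusted p = 0.0111) only sets the LK reads against 0. Thus 1 of 4 tested members passed as higher in LK cells under each treatment, beside 12.4% of all genes under PBS and 2.27% after IL-1β. The LK and LSK libraries did not overlap for 2 of 4 members under PBS, beside 48% of all genes. After IL-1β this held for 4 of 4 members, beside 56.9% of all genes. Fcgr4, with its few LSK read pairs, is in both counts. Under PBS the granulocyte-monocyte markers were also higher in LK cells (6 of 13 tested passed as higher), with Elane, a neutrophil granule protease, at a log2 fold change of 3.08 ± 0.38, and all 8 erythroid markers passed as higher too. The part of these cells in the values of Fcgr3 was not tested.

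An interaction term asked whether LK cells responded to IL-1β differently from LSK cells. The difference in log2 fold change (LK minus LSK) was 0.41 ± 0.43 for Fcgr2b, 0.36 ± 0.97 for Fcgr3, -0.85 ± 1.62 for Fcgr4 and 0.78 ± 0.48 for Fcer1g, with adjusted p of 0.703, 0.901, 0.853 and 0.479. By edgeR 0 of 4 members passed, 0 had an unadjusted p under 0.05 and DESeq2 called 0. Unadjusted p was under 0.05 for 1967 of 13839 genes. In all, 0.0217% of genes passed as higher and 0.00723% as lower, and with the replicate number as a block 23 genes instead of 3 passed as higher. With these standard errors a difference of 1 log2 unit lies within 2 standard errors of the value of Fcgr2b, Fcgr3, Fcgr4 and Fcer1g alike. The response in MSC was not tested against that of the sorted cells, since those libraries came from another experiment and scale.

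The receptors that use the same signalling chains gave a mixed picture. Of 13 partner receptors of Fcer1g or of DAP12 (Tyrobp), 7 were tested in LK cells. There 4 passed as higher with IL-1β, beside 6.77% of all genes: the neutrophil and monocyte receptors Trem1 (log2 fold change 1.83 ± 0.30, adjusted p = 0.00900) and Trem3 (2.91 ± 0.32, 0.00475), and the lectin receptors Clec5a (3.19 ± 0.49, 0.0164) and Clec4e (1.53 ± 0.33, 0.0264). Cd300lb passed as lower (-2.16 ± 0.35, 0.00828), beside 2.57% of all genes that passed as lower. In MSC 3 of 8 tested passed as higher, beside 7.14% of all genes: Clec4d, from 324 and 332 to 727 and 784 CPM (adjusted p = 0.00398), Clec4e (3.12 ± 0.48, 0.0225) and Trem1. Trem1 had 0 read pairs in both PBS libraries and 0.881 and 1.18 CPM with IL-1β, so it entered the test only through the IL-1β libraries and its pass adds nothing to the count. Trem2, a lipid receptor of macrophages, passed as lower (-0.68 ± 0.16, adjusted p = 0.0443), beside 4.31% of all genes. In LSK cells 0 of 7 tested passed by edgeR, where only 0.320% of all genes passed as higher and 0.312% as lower. Of the 7, 3 had an unadjusted p under 0.05, beside 2431 of all 13132 genes. DESeq2 called 3 as higher, beside 384 genes in all. Under PBS, Trem3 (2.45 ± 0.61, adjusted p = 0.00931) and Clec5a (1.97 ± 0.68, 0.0422) were higher in LK than in LSK cells and Clec4e was lower (-1.96 ± 0.41, 0.00347).

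The high-affinity IgE receptor of mast cells and basophils also signals through Fcer1g. Ms4a2, its beta chain, rose in LSK cells (3.19 ± 0.47, adjusted p = 0.0210) and LK cells (2.32 ± 0.31, adjusted p = 0.00897). Fcer1a, its IgE-binding chain, rose in LK cells (2.83 ± 0.51, adjusted p = 0.0341) and gave 2.07 ± 0.44 in LSK cells without passing (adjusted p = 0.0720). Both genes also stand in the mast cell and basophil marker list. Neither could be tested in MSC. Fcgrt, the neonatal Fc receptor that recycles IgG, rose in MSC (0.72 ± 0.16, adjusted p = 0.0442) and was lower in LK than in LSK cells under PBS (-3.11 ± 0.61, adjusted p = 0.00243). Of the 14 other immunoglobulin-binding receptors, 4, 4 and 5 had enough reads to be tested for IL-1β in LSK, LK and MSC. Of the 8 other ITAM adaptor chains, 4 were tested in LSK, 4 in LK and 2 in MSC. By edgeR 0 of them passed for IL-1β, beside 0.320%, 6.77% and 7.14% of all genes that passed as higher. Unadjusted p was under 0.05 for 0 in LSK, 2 in LK and 2 in MSC. The same held for 2431 of 13132, 3176 of 12835 and 3968 of 13239 genes. DESeq2 called 0, 1 and 0 of these chains, and in LK cells it called 1081 genes as higher in all. Tyrobp, which pairs with the Trem receptors, was at -0.48 ± 0.39 in LSK, -0.10 ± 0.26 in LK and -0.33 ± 0.10 in MSC (adjusted p = 0.535, 0.851 and 0.0966).

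Downstream of the activating chain, 5 of 21 signalling genes passed as higher in LK cells after IL-1β, beside 6.77% of all genes, and none as lower. Among them were Rac2, a GTPase of phagocytes (1.19 ± 0.21, adjusted p = 0.0179), Plcg2, a phospholipase (1.24 ± 0.24, 0.0248), Card9, an adaptor to NF-κB (1.23 ± 0.25, 0.0275), and Vav1, an exchange factor (0.73 ± 0.17, 0.0381). The median over the 21 genes was 0.39, beside -0.03 over all genes. In MSC 3 of 21 passed as higher, beside 7.14% of all genes, among them Lcp2, the adaptor SLP-76 (0.62 ± 0.13, adjusted p = 0.0358), and Fgr, a Src family kinase (1.38 ± 0.29, 0.0377), and Lat2 was the 1 of 21 that passed as lower (-1.05 ± 0.17, adjusted p = 0.0202), beside 4.31% of all genes. In LSK cells 0 of 21 passed by edgeR, where only 0.320% of all genes passed as higher and 0.312% as lower. Of the 21, 2 had an unadjusted p under 0.05, beside 2431 of all 13132 genes. DESeq2 called 1 as higher, beside 384 genes in all. Syk, the kinase that binds the phosphorylated chain, did not pass for IL-1β in any population.

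Among the inhibitory genes, 3 of 14 tested in LK cells passed as higher, beside 6.77% of all genes: Sirpa, the receptor of CD47 (1.11 ± 0.21, adjusted p = 0.0181), Cbl, a ubiquitin ligase (0.75 ± 0.15, 0.0215), and Dok3, an adaptor (0.94 ± 0.22, 0.0360). In MSC 3 of 15 passed as higher, beside 7.14% of all genes: Cd22, a sialic acid-binding ITIM receptor (1.00 ± 0.19, adjusted p = 0.0290), Inpp5d, the phosphatase that Fcgr2b recruits (0.55 ± 0.11, 0.0341), and Dok3 (0.54 ± 0.11, 0.0351). Cd300a was the 1 of 15 that passed as lower in MSC (-0.54 ± 0.12, adjusted p = 0.0398), beside 4.31% of all genes. The medians were 0.18 in LK and 0.10 in MSC. In LSK cells 0 of 15 passed by edgeR, where only 0.320% of all genes passed as higher and 0.312% as lower. Of the 15, 4 had an unadjusted p under 0.05, beside 2431 of all 13132 genes, and the median log2 fold change was -0.22. DESeq2 called 1 as higher, beside 384 genes in all.

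Between the sorted populations, under PBS, 13 of 21 activating genes were lower in LK than in LSK cells, 8 did not pass and none was higher, beside 19.4% of all genes that passed as lower. The clearest were Plcg2 (-2.06 ± 0.24, adjusted p = 0.000112), Syk (-1.55 ± 0.20, 0.000223), Lcp2 (-1.70 ± 0.25, 0.000390), Fyn (-1.31 ± 0.21, 0.000662), Vav1 (-0.94 ± 0.17, 0.00182) and Lat (-1.94 ± 0.36, 0.00188). Of 15 inhibitory genes 5 were lower, led by Dok2 (-2.16 ± 0.31, adjusted p = 0.000388) and Ptpn6, the phosphatase SHP-1 (-0.78 ± 0.16, 0.00300), and Dok3 was higher (0.79 ± 0.22, 0.0168). After IL-1β, Fyn was the 1 activating gene that passed, again as lower (-1.21 ± 0.26, adjusted p = 0.0239), beside 2.13% of all genes, and DESeq2 called 3 as lower and 1 as higher.

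**Figure D5:**
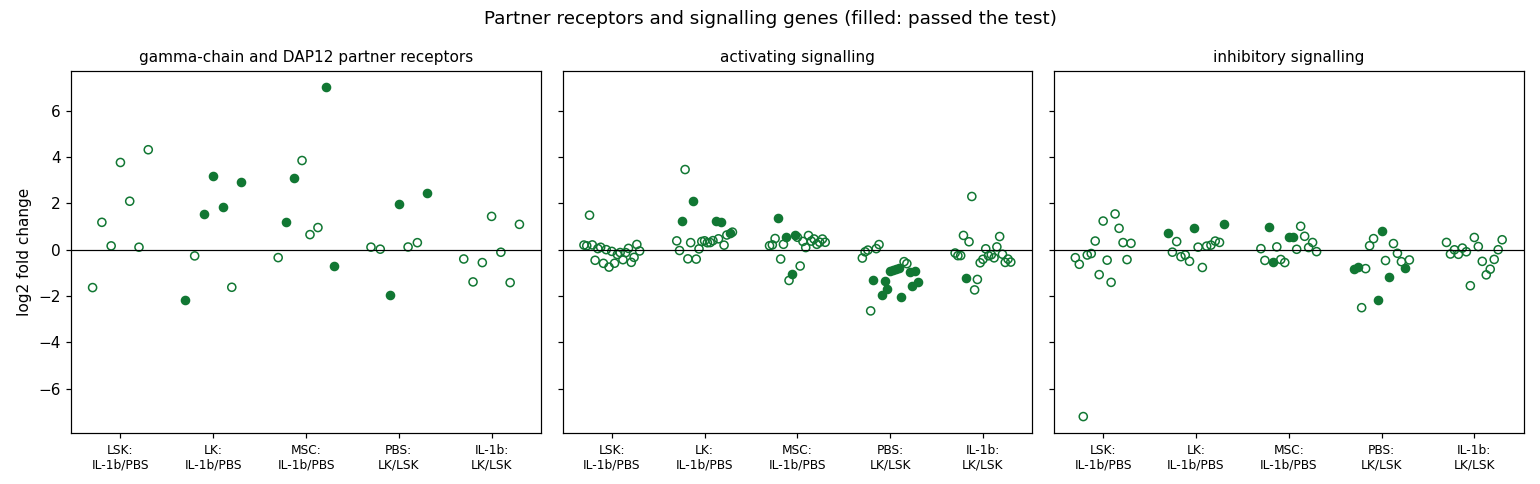
Log2 fold change of each tested gene in 3 lists (partner receptors of the Fcer1g and DAP12 chains, activating signalling, inhibitory signalling) for IL-1β against PBS in LSK, LK and MSC and for LK against LSK under PBS and IL-1β; filled points passed the test. The filled point at 7.02 is Trem1 in MSC, whose PBS libraries had 0 read pairs, so its size depends on the fit, and the group of 13 filled points below 0 in the middle panel is the activating list in LK against LSK cells under PBS.

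Across the 10 sorted libraries, the genes whose log2 CPM followed a member most closely were found among 10428 genes by Pearson correlation. For Fcgr3 they were Tmem97 (r = 0.991), Ifngr1, a chain of the interferon gamma receptor (0.991), and Tmed2 (0.985). For Fcgr2b they were Plod3 (0.973), Rflnb (0.968) and Tmx4 (0.958), for Fcgr4 Slc35a4 (0.980), Otud6b (0.954) and Sh3d19 (0.942), and for Fcer1g Gak (0.938), Sidt2 (0.920) and Sec31a (0.903). Between members, Fcgr2b and Fcgr3 had r = 0.653 over these 10 libraries, and Fcgr3 and Fcgr4 had r = 0.881. Fcgr4 had at most 4 read pairs in any LSK library. Its log2 CPM there, and so its correlations, depend on the prior count of 2 added before the logarithm. These libraries share treatment, population and depth differences, so the values are descriptions.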

How the data were processed

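The authors deposited raw counts, with 1 number of read pairs for each gene and library. Per the labels, ribosomal RNA was depleted before library preparation. Per the submitters' processing notes, reads were trimmed with fastp 0.20.0, aligned with HISAT2 2.0.1 to GRCm38, handled with SAMtools 1.10 and counted with featureCounts 2.0.2, and per the file headers read pairs were counted as reverse-stranded on Ensembl genes. By its default settings, read pairs that map to several places or overlap several genes are not counted, so close paralogs lose shared reads. A reference table of gene names matched 55141 of 55487 identifiers to symbols, 50-base words came from GENCODE transcripts, and promoter sequences are those of RefSeq on GRCm38.p6.

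The tests were those of edgeR 4.0.16 under R 4.3.3, with filterByExpr, TMM scaling, robust glmQLFit and glmQLFTest, within each population for IL-1β against PBS and over all 10 sorted libraries for LK against LSK and the interaction. Benjamini-Hochberg adjustment covered all genes tested, and a standard error is the log2 fold change divided by the square root of F. CPM used 1 TMM scale for the sorted libraries and another for MSC. A level of up to 3 counts was taken as the floor, for counting error only. The labels do not say that libraries came from separate mice or cultures, so p-values measure the spread between these libraries. The tests were checked on simulated data. Alternatives were DESeq2 1.42.0, its size factors in edgeR, a filter of 10 reads in 2 libraries, no filter, no threshold on the fold, a joint fit of LSK and LK, blocks for replicate numbers, and leaving out each library. Figures were drawn with matplotlib 3.10.9.

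LSK and LK libraries share replicate numbers. Deviations from the group mean of same-numbered LSK and LK libraries correlated at 0.211, 0.128 and 0.472 under PBS. For both IL-1β numbers the value was 0.100, just over the limit of 0.1 for pairing. With 2 libraries per group, the 2 IL-1β values are equal by construction. LSK PBS replicate 2 with LK PBS replicate 1 gave 0.162, and the LSK PBS and IL-1β libraries numbered 1 gave 0.126. These values thus do not settle whether the numbers pair LSK with LK libraries. The main fits had no block for the number, and the block was an alternative. The numbers did not pair PBS with IL-1β libraries, which came from different mice.

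The members and gene lists were chosen with earlier results of these data known. Some genes that passed are not reported by name here. Named genes are the 5 members, up to 6 genes per list and comparison that passed with the smallest adjusted p, the 3 genes most like each member (mean log2 CPM of at least 1, unnamed gene models left out), and markers. Syk for IL-1β, Tyrobp, Fcer1a in LSK, Cd68, Vsig4, Cd163 and Elane were named after their values were seen. The header of the MSC table names a further IL-1β library that is not analysed here.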

Additional observations from a re-analysis of the deposited data

How the results depend on the processing

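Over the alternatives and left-out libraries, 250 of 281 log2 fold changes of single members kept their direction and their side of the threshold. Of the rest, 15 lost a call, 14 gained one and 2 reversed. Values without a fold threshold are those of the main fit and could not change direction. Members without a call in the main fits had none to lose, so all 15 losses fell on the called members. In LK cells the call held in 9 of 12 settings for Fcgr2b and in 10 of 12 for Fcgr3. In MSC it held in 7 of 9 each for Fcgr1, Fcgr2b and Fcgr4. For Fcgr3 in LK against LSK cells it held in 12 of 12 under PBS and 6 of 10 under IL-1β. In LSK cells the main count of 0 members became 1 with DESeq2 (Fcgr2b), 1 without a filter on low counts, 1 in the joint fit and 2 with the replicate block (Fcgr2b and Fcgr3). In LK cells the count of 2 became 1 in the joint fit, where Fcgr3 had an adjusted p of 0.186. For LK against LSK cells the count of 1 became 2 with DESeq2 and 3 without a filter under PBS, and 2 without a filter under IL-1β. Leaving out each library in turn gave 0 to 1 members in LSK, 0 to 3 in LK, 0 to 3 in MSC, 1 to 2 for LK against LSK under PBS, 0 to 0 under IL-1β and 0 to 0 for the interaction. A group left with 1 library was assumed to vary like the others. In MSC the count of 3 became 4 without a filter, with Fcgr3 added. The interaction of Fcgr3 reversed with the replicate block (-3.48e-05) and without LSK PBS replicate 3 (-0.63, with a range of -0.63 to 0.90 over the left-out libraries), while the main value was within its standard error. The causes were not tested.

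Counts over all genes, which give the shares set beside the members, moved more. Leaving out each library gave 3 to 280 genes higher and 0 to 200 lower in LSK, 61 to 1499 and 5 to 910 in LK, 38 to 2038 and 0 to 1781 in MSC, 1064 to 1836 and 1677 to 2771 for LK against LSK under PBS, and 69 to 276 and 20 to 191 under IL-1β. In LSK cells 42 genes passed as higher and 41 as lower, and these became 384 and 486 with DESeq2, 355 and 514 without a filter, 547 and 681 in the joint fit, and 314 and 388 with the replicate block. In LK cells 869 and 330 became 421 and 68 in the joint fit and 1462 and 869 with the replicate block, and the lower count became 693 without a filter. In MSC 945 and 570 became 1439 and 915 without a filter. For LK against LSK under IL-1β, 314 and 295 became 674 and 643 with DESeq2 and 694 and 716 without a filter. For the interaction, 3 and 1 became 216 and 108 with DESeq2 and 228 and 170 without a filter. Same-numbered PBS and IL-1β libraries correlated between -0.10 and 0.13, so the block there joins libraries that share only a number. The replicate block changed no call of a member for LK against LSK. No paired analysis was possible in MSC because the groups share 1 number. The order of members by level changed where CPM was used without gene length, since Fcgr2b is the longest member.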
